A study of Mus musculus with 9 samples.

Results

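The mean of T cell zone macrophages (TZM) and microglia was compared with CD8a+ dendritic cells (DC), and a gene was kept when both macrophage populations differed from the DC in the same direction. Of 19938 genes measured, 13966 differed in the same direction in both populations, 7603 of them higher and 6363 lower than in CD8a+ DC. Genes were called shared when both differences were at least 1 on the log2 scale, a change of 2-fold, with a limma p-value adjusted by Benjamini-Hochberg under 0.05 in each. That left 461 genes higher in both macrophage populations (2.31% of all genes) and 591 lower in both (2.96%), 1052 in all. Genes were ranked by the smaller of the 2 differences. The same differences chose the genes, so their sizes are given as a description with no further test, and both comparisons use the same CD8a+ DC arrays.

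All cells came from mice in which 1 copy of the fractalkine receptor gene is replaced by green fluorescent protein (GFP), CX3CR1 gfp+/-, with 3 biological replicates in each of 3 groups and 1 Affymetrix array per replicate. TZM were lymph node cells sorted as GFP high, MertK+, CD11b+ and CD169-, and microglia were brain macrophages sorted as GFP high, CD11b+ and CD45+. CD8a+ DC were sorted as CD8a+ and CD64-, with high CD11c and high MHC class II, and their tissue is given as lymph node in one label and spleen in another. Macrophages were enriched with beads through CD11b and the DC through CD11c before sorting, after minced tissue had been digested with DNase I and collagenase I. Beads and gates therefore differ between the macrophage groups and the DC, as does the organ for the microglia and, if the DC came from spleen, for TZM too, and their effects and that of the cell lineage cannot be told apart. Sex-linked genes also differed between TZM and both other groups, so sex and population cannot be told apart there. The labels give no strain, age or number of animals per replicate.

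Macrophages and conventional dendritic cells are mononuclear phagocytes with different programmes. Tissue macrophages live on colony stimulating factor 1, clear dying cells and debris into a large lysosomal compartment, and mostly stay where they are. Conventional dendritic cells depend on the FLT3 receptor and, once mature, migrate through CCR7 to T cells; the CD8a+ subset takes up dead cells through CLEC9A and presents their antigens on MHC class I. TZM are macrophages of the lymph node T cell area and microglia are those of the brain parenchyma, so genes common to both can be set apart from the genes of either tissue.

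The genes of the sort gates followed the labels in part. Mertk was at a level (log2 RMA, robust multi-array average) of 10.02 in all 3 TZM arrays, at 10.80, 10.78 and 10.38 in microglia and at 3.59, 3.58 and 3.62 in CD8a+ DC. Cx3cr1 was at 10.25 ± 0.15 in TZM, 12.13 ± 0.05 in microglia and 5.35 ± 0.05 in CD8a+ DC (mean ± SD, n = 3 arrays, as for all such values here). Cd8a was at 11.34 ± 0.01 in CD8a+ DC, 5.94 ± 0.22 in TZM and 5.11 ± 0.11 in microglia. Itgam, Fcgr1, Itgax and H2-Eb1, which encode CD11b, CD64, CD11c and a class II chain of the gates, were also shared, Itgam and Fcgr1 higher and Itgax and H2-Eb1 lower, and are named here apart from the ranking. Siglec1, which encodes the CD169 that TZM were gated against, was at 7.38 ± 0.69 in TZM, 5.56 in microglia and 4.89 ± 0.22 in CD8a+ DC. Of 11 markers of type 1 dendritic cells, 10 were lower in both macrophage populations and Irf8 was the exception. Among 9 markers of TZM 6 were higher in both populations, and among 8 of microglia 4 were. Mertk, Cx3cr1, Fcgr1 and Itgam of the TZM markers are genes of the sort gates, as are Cd8a and Itgax of the type 1 markers. The sort selected for or against these proteins in some of the groups, so their direction is no independent evidence of identity.

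None of the 9 T cell, 8 neutrophil, 9 lymph node stroma, 6 neuron, 5 oligodendrocyte, 5 choroid plexus or 3 erythroid markers measured was shared. This is no check of purity, since cells carried over from 1 organ alone would not make a gene shared. With 2.31% of all genes higher and 2.96% lower, few members of any short list would be called. Ms4a1 of the B cell, Klrk1 of the natural killer cell and Ccr9 of the plasmacytoid DC markers were lower in both, and Tcf4 of the plasmacytoid DC, Mrc1 of the sinus macrophage and Slc1a3 of the astrocyte markers higher. Cd79b of the B cell markers lay the other way from Ms4a1 without being called. It was at 9.27 ± 0.87 in TZM, 7.85 ± 0.55 in microglia and 6.63 ± 0.33 in CD8a+ DC. The mean level of the T cell markers was 5.68 to 5.88 in TZM arrays, 4.61 to 4.69 in microglia and 4.81 to 4.92 in CD8a+ DC, and Cd28 alone was at 9.19, 9.50 and 8.54 in TZM, against 4.24 and 4.23 on average in the others. Among neutrophil markers, with a mean level of 4.70 to 5.69 in TZM and at most 4.30 in the other arrays, S100a8 was at 5.89, 9.28 and 7.32 in TZM, highest in replicate 2, and from 3.86 to 4.32 elsewhere. S100a9 was likewise at 6.21, 9.39 and 7.89 in TZM. The natural killer cell gene Gzma (5.67 ± 0.71 in TZM) and the stromal and endothelial genes Cxcl13 (8.33 ± 0.34) and Cdh5 (7.65 ± 0.11) also exceeded both other groups. Whether other cells took part in the values of TZM was not tested. TZM arrays differed in sex-linked genes: Xist was at 4.16, 4.36 and 8.26 in TZM and between 9.95 and 10.55 in the other 6 arrays. Eif2s3y, a gene of the Y chromosome, was at 6.67, 7.37 and 5.48 in TZM and at most 3.07 in the other 6 arrays. None of the 4 sex-linked genes measured was shared. Microglia and CD8a+ DC had similar levels of them, so a gene that follows sex could hardly be shared. Microglia replicates 1 and 3 were high in Ttr, the choroid plexus transthyretin, at 12.15 and 11.83 against 5.48 in replicate 2. With replicate 2 as the only microglia array, 411 genes were called higher in both populations, 401 of them among the 461, and 564 lower, 549 of them among the 591. In that fit the spread comes from the TZM and CD8a+ DC arrays alone, and the lone microglia array is assumed to vary like them.

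**Figure D1:**
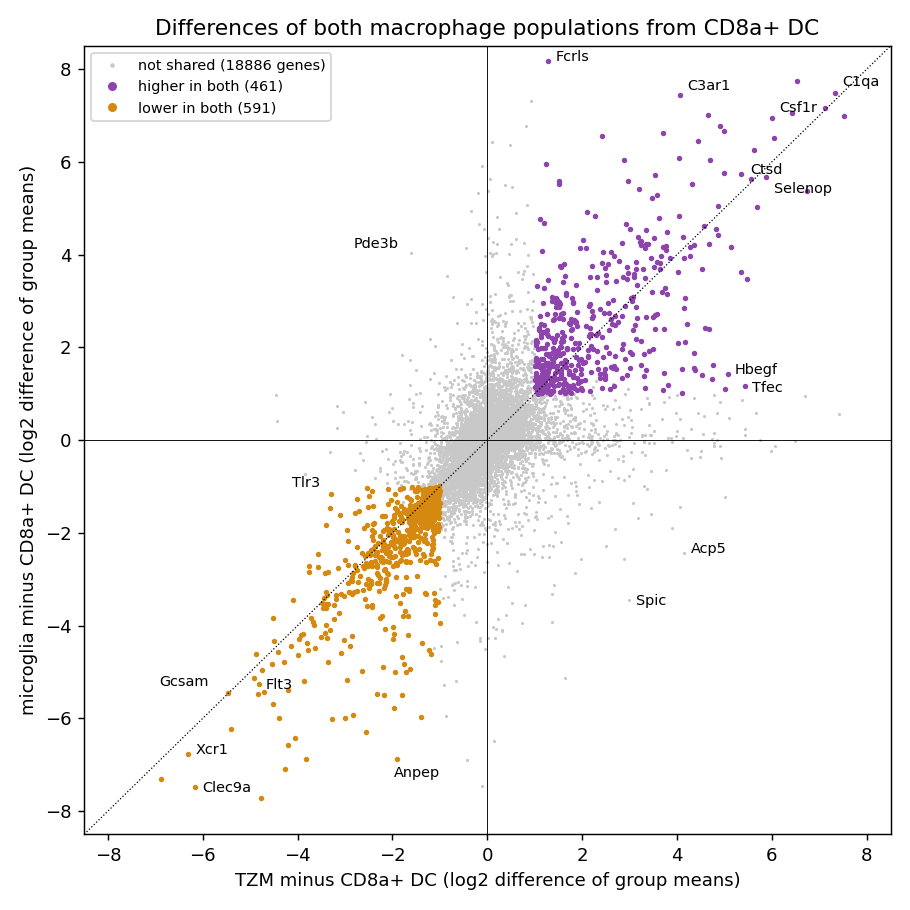
Each point is a gene: the horizontal axis is TZM minus CD8a+ DC and the vertical axis microglia minus CD8a+ DC, both as log2 differences of the means of 3 arrays. The 461 genes higher in both populations (purple) and the 591 lower in both (orange) lie around the dotted line of equal differences, with C1qa farthest up along it and Xcr1 and Clec9a far down, while Fcrls lies far above it and Tfec and Anpep lie far to its right.

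The 461 higher genes had a median smaller difference of 1.55, and 154 of them reached 2, 80 reached 3 and 32 reached 4. Median levels were 8.09 in TZM, 8.22 in microglia and 5.68 in CD8a+ DC. In 64 of them the CD8a+ DC mean was under 6 while both macrophage means were at least 8, and in 184 all 3 means were at least 6. The 591 lower genes had a median smaller difference of -1.57, and 179 reached 2, 61 reached 3 and 23 reached 4 in size. In 45 of these the CD8a+ DC mean was at least 8 and both macrophage means were under 6. All 6 macrophage arrays lay above all 3 CD8a+ DC arrays in each of the 461 higher genes, as they did in 8.90% of all genes, and all 6 lay below in 590 of the 591 lower genes, as in 11% of all genes. The choice of genes by their differences largely brings this about, so it is a description.

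The mean of both populations alone was less strict. It called 904 genes higher (4.53%) and 882 lower (4.42%). Taken singly, TZM were higher than CD8a+ DC in 4.71% of all genes and lower in 4.03%, and microglia in 5.15% and 6.01%. Of the 904, 461 were called in both populations, 209 in TZM alone, 233 in microglia alone and 1 in neither. Of the 882, 591 were called in both, 74 in TZM alone, 215 in microglia alone and 2 in neither.

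The 3 chains of complement C1q, which tags dying cells and immune complexes, were among the highest ranked genes higher in both macrophages. C1qa was at 12, 11.37 and 11.73 in TZM, 11.93, 11.86 and 11.75 in microglia and 3.98, 4.80 and 4.32 in CD8a+ DC. C1qc was at 12.29, 12.17 and 12.14 in TZM, 12.24, 12.30 and 12.17 in microglia and 4.77, 5.27 and 5.19 in CD8a+ DC. The smaller difference was 7.33 for C1qa, or 161-fold, and 7.13 for C1qc, or 140-fold. C1qb followed with 6.04, its second TZM array (10.73) being lower than the others (11.79 and 11.67). For C1qc the interval of the difference between TZM and microglia ran from -0.32 to 0.25 (95%, log2), so that both macrophages were within that distance of each other.

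Ccl12, a monocyte-attracting chemokine, was at 11.60, 11.49 and 11.20 in TZM, 11.18, 10.57 and 10.99 in microglia and 4.0, 3.86 and 3.90 in CD8a+ DC. Il1a, the alarmin interleukin 1 alpha, was at 10.75, 10.72 and 10.54 in TZM, 12.08, 11.64 and 11.90 in microglia and 4.76, 3.74 and 3.91 in CD8a+ DC. In both genes all macrophage arrays lay more than 5 log2 units above every CD8a+ DC array. Csf1r, the receptor for colony stimulating factor 1, was at 11.28, 11.12 and 11.26 in TZM, 12.20, 12.15 and 12.15 in microglia and 4.84, 5.50 and 5.28 in CD8a+ DC. Selenop, which encodes the plasma selenium carrier, was at 11.93 ± 0.12, 11.73 ± 0.02 and 6.04 ± 0.20 in the same order.

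The rest of the 15 highest ranked genes were surface receptors, a protease and a protease inhibitor. P2ry13 and P2ry12, nucleotide receptors that sense ADP, had smaller differences of 5.61 and 4.98, although P2ry12 is commonly used to mark microglia. Sirpa, whose product binds the don't-eat-me signal CD47, was even between the macrophages, at 11.55 ± 0.21 in TZM and 11.62 ± 0.05 in microglia against 5.99 ± 0.36. Cd33 and Clec4a3, which encode surface receptors, and Cd84, an adhesion receptor of the SLAM family, had smaller differences of 4.99, 5.04 and 4.87. Ctsd, the lysosomal protease cathepsin D, had 5.35, and Timp2, an inhibitor of matrix metalloproteinases, 5.36.

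**Figure D2:**
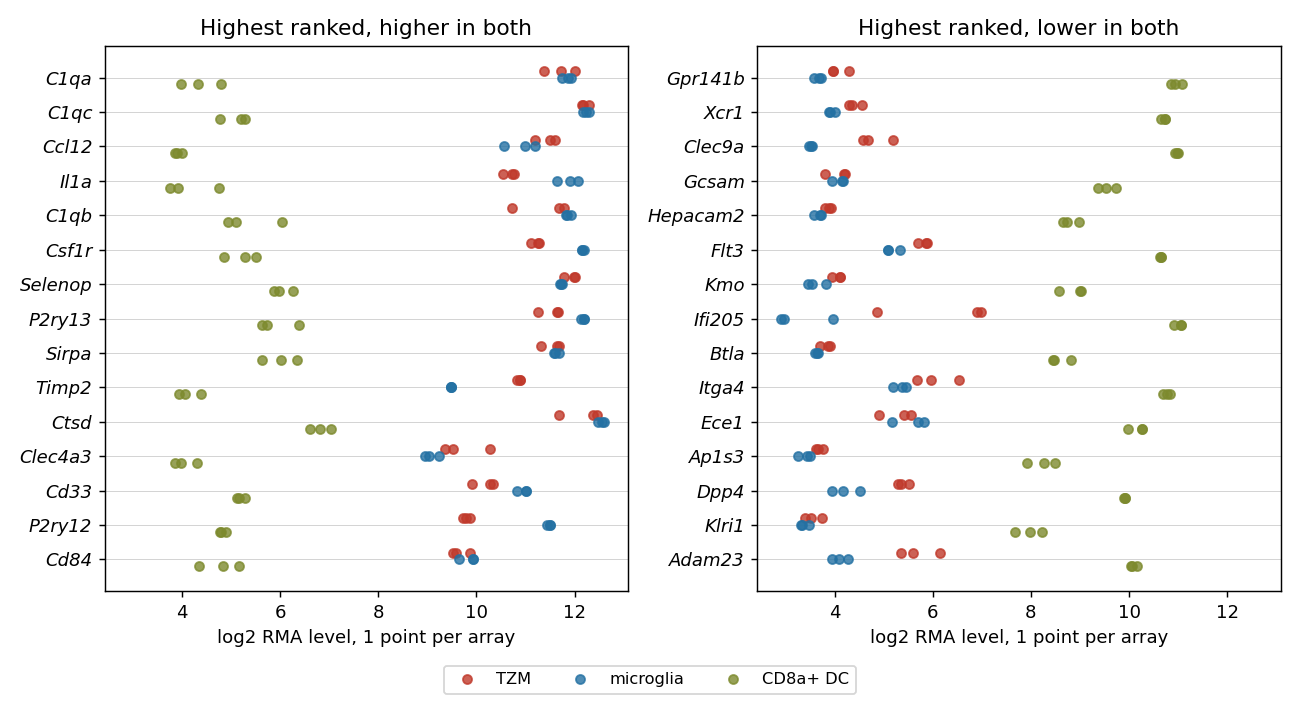
Levels (log2 RMA, horizontal axis) of the 15 highest ranked genes higher in both macrophage populations (left) and lower in both (right), with 1 point for each of the 3 TZM (red), 3 microglia (blue) and 3 CD8a+ DC (green) arrays. In all 30 genes the CD8a+ DC arrays stand apart from all macrophage arrays, which was a condition for being shown. TZM and microglia overlap or lie close in most. By the limma contrast and its minimum, 7 genes differed between them: Il1a, Timp2 and P2ry12 on the left and Clec9a, Ifi205, Dpp4 and Adam23 on the right.

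Of 38 receptors of growth factors and cytokines measured, 8 were higher (21.1%, against 2.31% of all genes) and 2 lower (5.26%, against 2.96%) in both macrophages. Of the 7678 genes with a level of at least 6 in at least 3 arrays, 451 were higher and 496 lower. Those shares exceed the ones over all genes, and the lower share of this list does not exceed them. Both sets of shares apply to the list counts below as well. Flt3, the receptor through which dendritic cells develop, was at 5.88, 5.69 and 5.86 in TZM, 5.33, 5.09 and 5.09 in microglia and 10.65, 10.65 and 10.63 in CD8a+ DC. Kit, the stem cell factor receptor, was at 5.56 ± 0.17, 4.70 ± 0.05 and 9.19 ± 0.13. Those were the 2 lower members, and Csf1r led the higher ones. Tgfbr1, a receptor chain for transforming growth factor beta, had differences of 2.61 in TZM and 4.05 in microglia, and Csf3r, the granulocyte colony stimulating factor receptor, 3.20 and 5.42. Csf2ra and Csf2rb, chains of the granulocyte-macrophage colony stimulating factor receptor, named after their values were seen, were not shared, with mean levels in CD8a+ DC of 8.60 and 9.50 and in TZM of 8.28 and 9.08.

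Among 38 transcription factors known from macrophages, 9 were higher in both populations and none lower. Zeb2, a repressor with a role in mononuclear phagocytes, was at 9.61, 9.44 and 9.46 in TZM, 9.18, 9.20 and 9.26 in microglia and 5.22, 5.26 and 5.21 in CD8a+ DC. Etv5 had a smaller difference of 4.21, Cebpa 3.09, Mitf 1.82 and Maf 1.41. Nfia and Tfec were also higher in both. Spi1, which encodes the myeloid regulator PU.1, was not shared: its level was 9.61 ± 0.38 in TZM, 9.57 ± 0.15 in microglia and 10.01 ± 0.09 in CD8a+ DC. Cebpb was 0.74 and 1.0 above CD8a+ DC and fell short of the minimum in both, in microglia only before rounding.

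Of 30 regulators known from dendritic cells, 13 were lower in both macrophages and 2, Tcf4 and Klf4, higher. Nr4a3, an immediate early nuclear receptor linked to dendritic cell migration, had the largest smaller difference of these, -3.41, with microglia replicate 2 (5.99) below the other 2 microglia arrays (7.56 and 7.49). Ciita, the master activator of class II genes, was at 6.0, 5.99 and 5.94 in TZM, 5.54, 5.61 and 4.93 in microglia and 9.25, 9.16 and 9.24 in CD8a+ DC. Bcl11a, Zfp366 and Cbfa2t3 had smaller differences of -2.91, -2.45 and -2.31, Zbtb46 of -1.53 and Batf3 of -1.29. Irf8 was lower by 0.93 in TZM and 1.41 in microglia and so missed the shared rule, and Irf4 was at 4.22 ± 0.31, 4.36 ± 0.09 and 4.87 ± 0.27.

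Genes of recognition and engulfment formed a group in which many members were higher in both macrophages, with fewer in the other direction. Among 25 genes of complement and Fc receptors, of which 3 belong to the sort gates, 10 were higher and 1, Itgax of the sort gate, lower. Besides the C1q chains these included Fcgr3, a low affinity IgG receptor with differences of 4.69 in TZM and 6.03 in microglia, and C3ar1, the receptor for complement fragment C3a, with 4.06 and 7.44. Among 47 genes of dead cell uptake, 14 were higher and 2 lower, Cd36 and Anxa1. Cd36, a scavenger receptor, was at 10.47, 10.54 and 10.31 in CD8a+ DC, 6.38, 7.05 and 6.30 in TZM and 5.66, 4.50 and 5.54 in microglia. Abca1, the cholesterol exporter that phagocytes use after taking up cells, was at 10.01, 9.51 and 9.80 in TZM, 9.41, 9.34 and 9.26 in microglia and 4.80, 5.22 and 4.72 in CD8a+ DC. Of the other receptors on that list Axl and Timd4 were high in TZM alone (10.09 and 11.26 on average), and Trem2 in microglia alone (9.97 ± 0.20 against 6.23 ± 0.04 in TZM).

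Many lysosomal genes were shared. Of 76 measured, 31 were higher in both macrophages (40.8%) and 3 lower (3.95%), and the median of the mean difference was 0.94 against 0.02 over all genes. Ctsd was at 12.45, 11.67 and 12.37 in TZM, 12.56, 12.60 and 12.48 in microglia and 7.03, 6.61 and 6.80 in CD8a+ DC. Tpp1, a tripeptidyl peptidase, had differences of 3.68 and 3.20, Acp2, an acid phosphatase, 4.17 and 3.07, Pld3, an endolysosomal nuclease, 5.35 and 3.63, and Slc15a3, a peptide transporter of the endolysosome, 3.29 and 3.69. Smaller differences were found for Ctsb (2.31 and 1.68), Lamp2 (1.60 and 1.88) and Cd68 (1.81 and 1.36), each of which was at 8.87 or more in CD8a+ DC as well. The 3 lower members were Gusb, Ppt1 and Fuca1, named after their values were seen: Ppt1, a thioesterase, was at 11.98 in CD8a+ DC against 10.02 in TZM and 10.35 in microglia.

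Lipid genes were mixed. Of 46, 14 were higher and 3 lower in both. Hpgds, which makes prostaglandin D2, was at 10.02, 9.94 and 9.85 in TZM, 11.22, 11.01 and 11.16 in microglia and 6.03, 5.35 and 5.47 in CD8a+ DC. Hpgd, which degrades prostaglandins, had differences of 3.18 and 4.38, and Lpcat2, which makes platelet activating factor, 3.51 and 4.36. Apoe, which encodes the lipid carrier apolipoprotein E, was at 13.03 ± 0.17 in TZM, 11.49 ± 0.47 in microglia and 9.53 ± 0.22 in CD8a+ DC. Several others were called between the macrophages: 27 of the 46 differed between TZM and microglia. Of all genes 7.65% did, and of those with a level of at least 6 in at least 3 arrays 17.3%. The lists varied in this, from 4 of 57 cell cycle genes to 29 of 48 chemokines and cytokines, so it is not particular to lipid genes.

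Of 37 genes of iron, heme and redox handling, 6 were higher and 1, Gclc, lower. Slc40a1, the iron exporter ferroportin, was at 8.60, 8.41 and 8.47 in TZM, 7.47, 7.99 and 7.53 in microglia and 4.16, 4.12 and 3.63 in CD8a+ DC. Hmox1, which breaks down heme, had differences of 2.57 and 1.88, and Trf, which encodes transferrin, 2.31 and 3.23. Hebp1, a heme binding protein, was at 9.17 ± 1.04, 6.60 ± 0.38 and 5.07 ± 0.08, and its call was not stable: without any single CD8a+ DC array or without microglia replicate 1 or 3 the limma adjusted p in microglia was 0.089 to 0.12.

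Innate sensors and paired receptors were also represented. Of 45 sensors, 11 were higher and 2 lower, the latter being Tlr3 and Clec9a. Tlr4, the receptor for lipopolysaccharide, was at 8.85, 8.89 and 8.47 in TZM, 8.92, 9.37 and 9.18 in microglia and 5.01, 5.21 and 4.71 in CD8a+ DC. Clec5a, an activating lectin receptor, had a smaller difference of 4.24, Tlr7, an RNA sensor, 3.62, and Ddx58, which encodes RIG-I, 2.50. Cd14, the co-receptor of Tlr4, was not shared: its level in TZM, 7.78 ± 0.76, was close to that in CD8a+ DC, 7.31 ± 0.24, and microglia were at 10.39 ± 0.23. Of 47 adaptors and paired receptors 13 were higher and 1, Slamf7, lower. The adaptor Tyrobp missed the minimum of 1 with differences of 0.58 and 0.72, and was at 11.35 ± 0.02 in CD8a+ DC.

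Of 48 chemokines and cytokines, 7 were higher in both macrophages and 5 lower. Pf4, the platelet factor chemokine CXCL4, was at 9.03, 9.56 and 9.19 in TZM, 9.11, 7.05 and 8.72 in microglia and 3.97, 4.54 and 3.86 in CD8a+ DC. Ccl7, another monocyte attractant, was at 9.27, 9.60 and 8.37 in TZM, 9.52, 7.10 and 9.38 in microglia and 5.29, 4.15 and 5.71 in CD8a+ DC. In both genes the second microglia array was the lowest of that group. With replicate 2 as the only microglia array, the difference of Ccl7 in microglia was 2.05. In the other direction Il12b, which encodes the p40 chain of interleukin 12, was at 10.62, 10.41 and 10.61 in CD8a+ DC, 6.35 in all 3 TZM arrays and 5.35, 4.93 and 5.18 in microglia. Il1b was lower by 3.10 in TZM and 1.62 in microglia, the opposite of Il1a, and Ccl22, Il15 and Tnfsf9 were the other lower members.

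Receptors for chemoattractants and nucleotides split more evenly, with 11 of 45 higher and 8 lower. Cmklr1, the chemerin receptor, was at 9.15, 9.38 and 9.31 in TZM, 8.86, 8.94 and 9.18 in microglia and 4.18, 4.41 and 4.77 in CD8a+ DC. Xcr1, a chemokine receptor of type 1 dendritic cells, was at 4.55, 4.36 and 4.29 in TZM, 4.01, 3.90 and 3.88 in microglia and 10.74, 10.73 and 10.65 in CD8a+ DC. Ccr7, which guides cells into the T cell zone, was at 8.99 ± 0.07 in TZM, 5.94 ± 0.76 in microglia and 10.95 ± 0.03 in CD8a+ DC, so that it was lower in both by the rule but by 1.96 in TZM and 5.01 in microglia.

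The genes lower in both macrophages were led by those of type 1 dendritic cells. Of 33 genes known as common to conventional dendritic cells 28 were lower in both and none higher, and of 24 genes of the type 1 subset 19 were lower and none higher. Gpr141b, an orphan receptor, ranked first: it was at 3.97, 3.97 and 4.29 in TZM, 3.68, 3.71 and 3.58 in microglia and 11.09, 10.86 and 10.93 in CD8a+ DC. Clec9a, the receptor for actin exposed by dead cells, was at 4.67, 5.18 and 4.57 in TZM, 3.51, 3.47 and 3.53 in microglia and 11, 10.94 and 10.98 in CD8a+ DC. Gcsam, a signalling protein of lymphoid cells, was at 4.19, 4.21 and 3.81 in TZM, 4.17, 4.16 and 3.94 in microglia and 9.73, 9.37 and 9.53 in CD8a+ DC. In these 3 genes the CD8a+ DC arrays lay more than 5 log2 units above every macrophage array.

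Further down the ranking were Kmo, an enzyme of tryptophan breakdown (smaller difference -4.82), Btla, an inhibitory receptor (-4.76), and Dpp4, the peptidase CD26 (-4.53). Ap1s3, an adaptor subunit of vesicle transport, had -4.54, Adam23 -4.39, Hepacam2 -4.92, Ece1, the endothelin converting enzyme, -4.61, and Klri1, a lectin-like receptor, -4.41. Ifi205, an interferon-induced gene, varied among arrays: it was at 6.89, 4.86 and 6.97 in TZM, 3.97, 2.97 and 2.91 in microglia and 11.05, 10.91 and 11.06 in CD8a+ DC.

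Antigen presentation genes were lower in part. Of 28 genes of class II presentation and co-stimulation, 9 were lower in both macrophages and 2, Lgmn and Ctss, both lysosomal proteases, higher. H2-Oa and H2-Ob, chains of the peptide-loading regulator H2-O, had smaller differences of -2.46 and -2.71, with TZM below microglia in both. Cd74, the invariant chain, was at 11.09, 11.17 and 10.99 in TZM, 8.63, 7.35 and 8.43 in microglia and 12.11, 12.08 and 12.08 in CD8a+ DC. Its difference in TZM, -1.01, lay at the minimum, and leaving out any 1 TZM or CD8a+ DC array ended the call, with a limma adjusted p of 0.065 to 0.11. H2-Ab1 was lower by 1.12 in TZM and 4.47 in microglia and missed the call through TZM (limma adjusted p 0.249). It was at 8.61, 6.08 and 8.46 in microglia, whose arrays share 1 estimate of spread with TZM in the fit of all arrays. It gained the call without microglia replicate 2 (adjusted p 1.6e-05 in TZM), when each pair of groups was fitted on its own, and with replicate 2 as the only microglia array (6.1e-05 in TZM in both of these fits).

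Of 26 genes of class I presentation 7 were lower and none higher. Wdfy4, which dendritic cells need to cross-present antigens of dead cells, was at 7.98, 7.52 and 8.14 in TZM, 7.57, 7.86 and 7.50 in microglia and 10.94, 10.98 and 10.94 in CD8a+ DC. Rab43 had a smaller difference of -2.32 and Cd1d1, a lipid-presenting molecule, -1.94. Tap2, a chain of the peptide transporter, had -1.10 and Psmb8, an immunoproteasome subunit, -1.15, or -0.83 in TZM without TZM replicate 2.

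Integrins and adhesion molecules went both ways, with 7 of 48 higher and 13 lower. Itga9, whose product binds matrix proteins, was 4.15 above CD8a+ DC in TZM and 3.94 in microglia, and Itgb5, which pairs with the alpha v chain, 4.04 and 6.09. Itga4, a chain of the integrin for vascular cell adhesion molecule 1, was at 5.67, 6.53 and 5.97 in TZM, 5.36, 5.20 and 5.45 in microglia and 10.84, 10.69 and 10.77 in CD8a+ DC. Itgae, which encodes CD103, had -3.71 and Itga8 -3.40, and Cd24a was lower by 3.82 in TZM and 6.87 in microglia.

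Cell cycle genes were lower in both macrophages in 26 of 57 (45.6%, against 2.96% of all genes) and higher in none. Mki67, a marker of dividing cells, was at 5.66, 6.02 and 5.50 in TZM, 4.88, 4.98 and 5.08 in microglia and 8.02, 7.79 and 7.75 in CD8a+ DC. Top2a, a topoisomerase of dividing cells, was lower by 2.22 and 3.80, Kif11, a motor protein of the spindle, by 2.23 and 2.38, and Rrm2, which makes deoxynucleotides, by 2.07 and 2.62. In RNA of sorted cells in bulk, fewer dividing cells and less of these RNAs per cell cannot be told apart. The inhibitor Cdkn1b and the replication clamp Pcna, named after their values were seen, were not shared, and were at 10.08 and 10.87 in CD8a+ DC.

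Immediate early genes, which respond within minutes to stimulation and also to tissue digestion, were split. Of 33, 5 were higher and 6 lower. Nr4a2 was at 6.64, 7.43 and 6.86 in TZM, 6.50, 5.80 and 6.73 in microglia and 11, 10.97 and 10.96 in CD8a+ DC, and Dusp5, a phosphatase that acts on ERK, had a smaller difference of -1.96. Myc was at 9.68, 10.61 and 9.55 in TZM, 9.91, 9.65 and 10.28 in microglia and 7.49, 7.24 and 7.04 in CD8a+ DC. Rhob was 2.77 and 3.86 above CD8a+ DC.

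**Figure D3:**
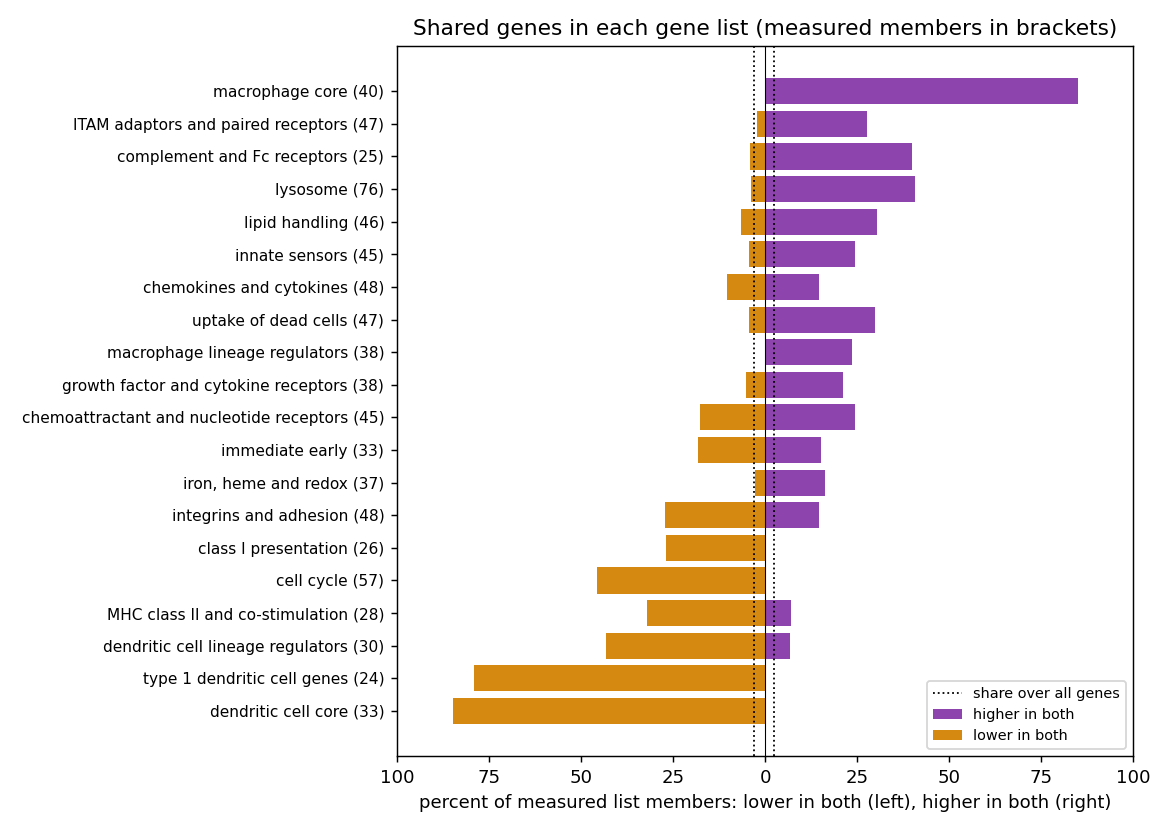
Bars give, for each of 20 gene lists, the percentage of measured members that were higher in both macrophage populations (purple, right) and lower in both (orange, left); the dotted lines mark the shares over all genes, 2.31% and 2.96%. Lysosome, complement and Fc receptor and macrophage core genes reach far to the right, and cell cycle and dendritic cell genes far to the left. The lists overlap in members. Some hold genes of the sort gates: 3 in complement and Fc receptors and 2 each in macrophage core, class II and integrins. Dead cell uptake, type 1 dendritic cell, paired receptor and chemoattractant genes hold 1 each.

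A known macrophage signature served as a description of how far the rule covers general macrophage genes. Of 40 such genes measured 34 were higher in both and none lower. The 6 that were not shared, named after their values were seen, were Dok3, Cd14, Pecr, Mgst1, Cd63 and Ptpro. Adgre1, which encodes F4/80, was at 8.13 ± 0.05 in TZM, 9.84 ± 0.05 in microglia and 4.56 ± 0.20 in CD8a+ DC. Mrc1, the mannose receptor, was at 8.20, 7.93 and 7.60 in TZM, 8.96, 7.21 and 8.54 in microglia and near 4.14 in CD8a+ DC. Aif1, which encodes the microglial stain IBA1, did not separate the lineages: it was at 10.65 ± 0.22, 10.27 ± 0.20 and 10.23 ± 0.12.

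The 2 macrophage populations were then compared within the shared genes. TZM minus microglia is the gap between the 2 differences that chose and ranked these genes, so the shares are a description. Among the 461 higher genes, 146 (31.7%) also differed between TZM and microglia by at least 2-fold at a limma adjusted p under 0.05, against 7.65% of all genes and 17.3% of those with a level of at least 6 in at least 3 arrays. TZM were the higher population in 52 and microglia in 94, where 4.25% of all genes were higher in TZM and 3.4% higher in microglia. Among the 591 lower genes 97 (16.4%) differed, and TZM were the higher population, nearer to CD8a+ DC, in 82 of them. For 229 of the 461 and 405 of the 591, the 95% interval of TZM minus microglia lay within 1 on either side, so a 2-fold difference was outside it. Both macrophage means were under 6 in 301 of the 591 and in 6 of the 461. At such low levels a difference between the macrophages has little room to show.

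Among the 60 highest ranked genes in each direction the most even were C1qc, Sirpa, Plau, Ms4a6d and Dst on the higher side and Gcsam, Arhgap42, Gp2, Itga8 and Clec1a on the lower side. Plau, the plasminogen activator urokinase, was at 9.26, 8.96 and 9.32 in TZM, 9.26, 9.25 and 9.21 in microglia and 4.67, 4.57 and 4.60 in CD8a+ DC. Dst, a cytoskeletal linker, was at 8.74 ± 0.13, 8.63 ± 0.08 and 4.46 ± 0.10. Ms4a6d had differences of 3.85 and 3.93. The 5 lower genes had means between 3.38 and 4.29 in both macrophages, under the array medians of 4.9005 to 5.015. Their evenness is that of low levels in both.

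The most uneven higher genes had a large difference in 1 population and a small one in the other. Fcrls, an Fc receptor-like gene known from microglia, was at 5.03, 4.92 and 5.18 in TZM, 11.92, 11.98 and 11.90 in microglia and 3.69, 3.77 and 3.82 in CD8a+ DC. TZM were 6.89 ± 0.08 (SE) below microglia, with a limma adjusted p of 2.6e-09. Gpr84, Olfml3, Slco2b1 and F11r were likewise 3.99 to 4.72 lower in TZM than in microglia. In the other direction Tfec was at 9.50, 8.91 and 9.46 in TZM, 5.08, 4.90 and 5.08 in microglia and 4.13, 3.72 and 3.73 in CD8a+ DC, a difference between the macrophages of 4.27 ± 0.18 (limma adjusted p 8.4e-07).

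Epb41l3, Hbegf, Myo1e and Mmp14 were 3.15 to 3.91 higher in TZM than in microglia. With replicate 2 as the only microglia array the differences of microglia from CD8a+ DC were 1.04 for Tfec, 0.80 for Epb41l3 and 0.78 for Myo1e, so that Epb41l3 and Myo1e were below the minimum of 1. Without microglia replicate 3 alone Epb41l3 was also below it (0.99). Among the lower genes Anpep, the aminopeptidase CD13, was at 9.20 ± 0.18 in TZM, 4.23 ± 0.13 in microglia and 11.10 ± 0.06 in CD8a+ DC. Adgre5, Slamf7, Shtn1 and Ccl22 were also 3.42 to 4.55 higher in TZM than in microglia. Tlr3, Plpp1, Mctp1, Pid1 and Il1b lay the other way, with TZM 1.48 to 2.12 below microglia. Pid1 lost its call without any single CD8a+ DC or microglia array (limma adjusted p in microglia 0.057 to 0.11).

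**Figure D4:**
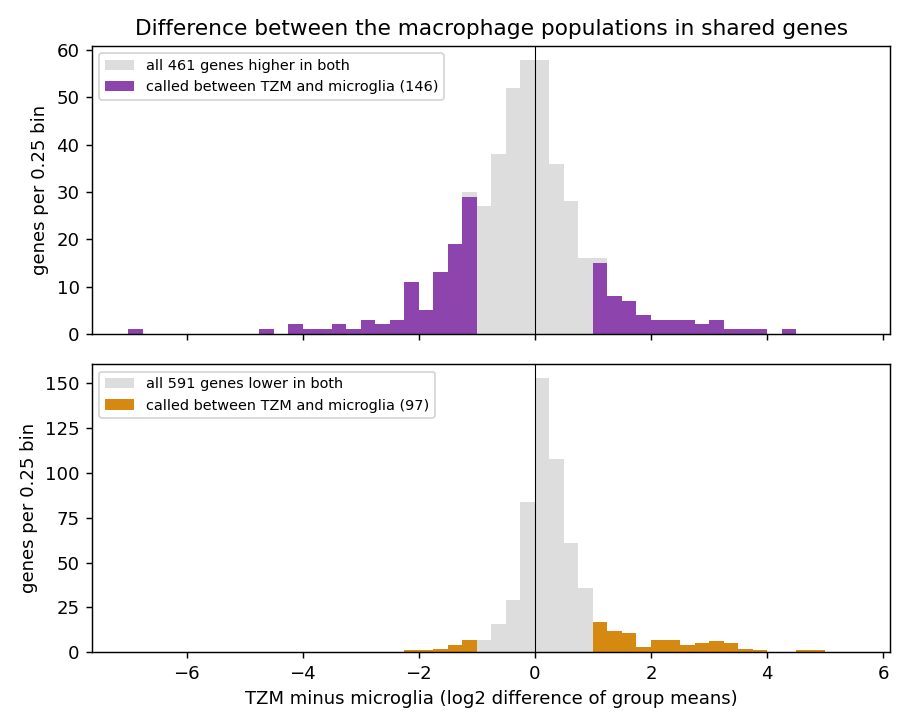
Histograms of TZM minus microglia (log2 difference of means of 3 arrays, bins of 0.25) for the 461 genes higher in both populations than in CD8a+ DC (top) and the 591 lower in both (bottom); coloured bars are the 146 and 97 genes called between the macrophage populations. The called genes extend to both sides in the top panel, more of them on the microglia side, and lie mostly on the TZM side in the bottom panel.

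Opposite calls were rarer: of 19938 genes, 45 exceeded CD8a+ DC in TZM while lying below them in microglia, and 11 went the other way. Both differences subtract the same CD8a+ DC arrays, which draws them to the same sign, so the smaller number is partly built in. Ranked by the smaller of both differences in size, the first 3 of the first kind were Spic, a PU.1-related factor, at 10.09 ± 0.19 in TZM, 3.66 ± 0.33 in microglia and 7.11 ± 0.30 in CD8a+ DC, and Cfp and Acp5. Those of the second were Pde3b, a phosphodiesterase, at 4.68 ± 0.46, 10.31 ± 0.07 and 6.28 ± 0.35, and Ccl4 and Ier3.

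At the minimum difference of 1 the rule divides genes of the same size. Mfhas1, Tbc1d19 and Ddb2 were just inside it on the higher side and Srd5a3, Cbr1 and Rab12 just outside, and on the lower side Elac2, Olfr164 and Aff3 were inside and Lsm4, Lyst and Psma1 outside. All 12 had a smaller difference of 1.0 in size after rounding.

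The positions of the shared genes in the genome and the sequences at their starts were not used by the rule. The genes of C1q lie side by side, and C1qb, C1qc and C1qa formed 1 of 19 runs of neighbouring measured genes, 40 genes in all, that were higher in both macrophages. Others were P2ry13 with P2ry12, Ccl2 with Ccl7, Clec4a1 with Clec4a3 and Zeb2 with its antisense transcript Zeb2os; whether probes of the last pair overlap was not tested. The lower genes formed 50 runs with 107 genes, among them Psmb8, Tap2 and H2-Ob in the class II region and Clec9a with Clec1a. How many runs a random order of genes would give was not computed, so the counts do not show clustering.

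Promoter windows, from 250 bases before to 50 bases after the start of a gene in RefSeq's GRCm38.p6 annotation, were found for 380 of the 461 higher genes (520 windows) and 474 of the 591 lower ones (586 windows). Median GC content was 58.7% and 57.7%, against 57.7% for all measured genes and 61.3% for genes with a level of at least 6 in at least 3 arrays. A CpG ratio of at least 0.6, observed over expected, was found in 53.1% and 54.9% of the windows, against 51.2% for all genes and 72.4% for those at 6 or more.

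The letters GAGGAAGT, a core of the PU.1 motif, occurred on either strand in 4.62% of the windows of higher genes and 4.78% of those of lower genes, against 2.78% for all measured genes and 3.75% for the genes with a level of at least 6. The letters TCACGTGA, an E-box bound by MITF and TFE factors, occurred in 2.12% of the windows of higher genes and 0.512% of lower ones, against 1.32% and 2.25%. The E2F letters TTTCCCGC were found in 0.962% and 2.73%, against 1.51% and 2.11%. TGANTCA (AP-1) was found in 8.27% and 7.51%, TTGCNNAA (CEBP) in 11.2% and 10.8%, TGCTGA (part of a MAF site) in 20.4% and 17.9%, and CCAAT in 35.2% and 39.2%, against 6.88%, 9.76%, 17.7% and 37.4% for all genes and 5.08%, 8.71%, 14.6% and 36.5% for genes with a level of at least 6. These are counts of letters, some of few windows, with no test, and say nothing about binding.

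The stretches around the PU.1 letters are shown for highly ranked genes of each direction, since the same letters stand near starts of genes higher and lower in macrophages, with the match in capitals (in its reverse complement where the motif is on the opposite strand). The higher genes are C1qc (chr4:136893062-136893149, minus strand, starting 195 bases before the start), Hpgds (chr6:65144732-65144819, minus, 49 before) and Pf4 (chr5:90772385-90772434, plus, 10 before). The lower genes are Kmo (chr1:175632050-175632137, plus, 103 before) and Btla (chr16:45224279-45224336, plus, 18 before). All are RefSeq sequences of build GRCm38.p6, read 5′ to 3′ along the strand of the gene.
C1qc: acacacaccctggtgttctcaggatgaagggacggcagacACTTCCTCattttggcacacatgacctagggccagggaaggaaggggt
Hpgds: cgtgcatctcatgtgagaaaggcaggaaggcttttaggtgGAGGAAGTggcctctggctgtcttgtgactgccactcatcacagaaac
Pf4: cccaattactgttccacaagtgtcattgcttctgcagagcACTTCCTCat
Kmo: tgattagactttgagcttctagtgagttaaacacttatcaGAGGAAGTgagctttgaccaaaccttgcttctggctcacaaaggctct
Btla: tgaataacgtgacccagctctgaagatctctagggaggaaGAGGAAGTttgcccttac

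The E-box letters are shown for the lysosomal gene Ctsd (chr7:142387879-142387966, minus strand, 99 bases before the start), the highest ranked higher gene with a match in its window, and for Rgl1 (chr1:152766317-152766404, minus, 59 before), the next in rank.
Ctsd: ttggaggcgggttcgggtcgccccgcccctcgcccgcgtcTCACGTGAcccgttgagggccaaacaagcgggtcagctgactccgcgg
Rgl1: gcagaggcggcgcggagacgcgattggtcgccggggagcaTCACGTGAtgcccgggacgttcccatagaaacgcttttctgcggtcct

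The gap between microglia arrays touched a few shared genes. In 5 of the 461 higher genes microglia replicate 2 was at least 1 below both other microglia arrays: Ccl7, Cxcl2, Dab2, Mrc1 and Pf4. The same held for 10 of the 591 lower genes, among them Cd74, Cd36 and Nr4a3, and for 56 of all genes, while 19 of all genes lay at least 1 above. In all 8 genes of a list of brain border macrophage markers, chosen after the arrays had been seen, replicate 2 was the lowest of the microglia, by 0.25 to 2.34 against the mean of the others. Mrc1 and Pf4 are on that list and are shared genes. Whether cells of the brain borders took part in these values was not tested. C1qa, Csf1r and Selenop did not follow replicate 2: C1qa was at 11.93, 11.86 and 11.75 in the microglia arrays.

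**Figure D5:**
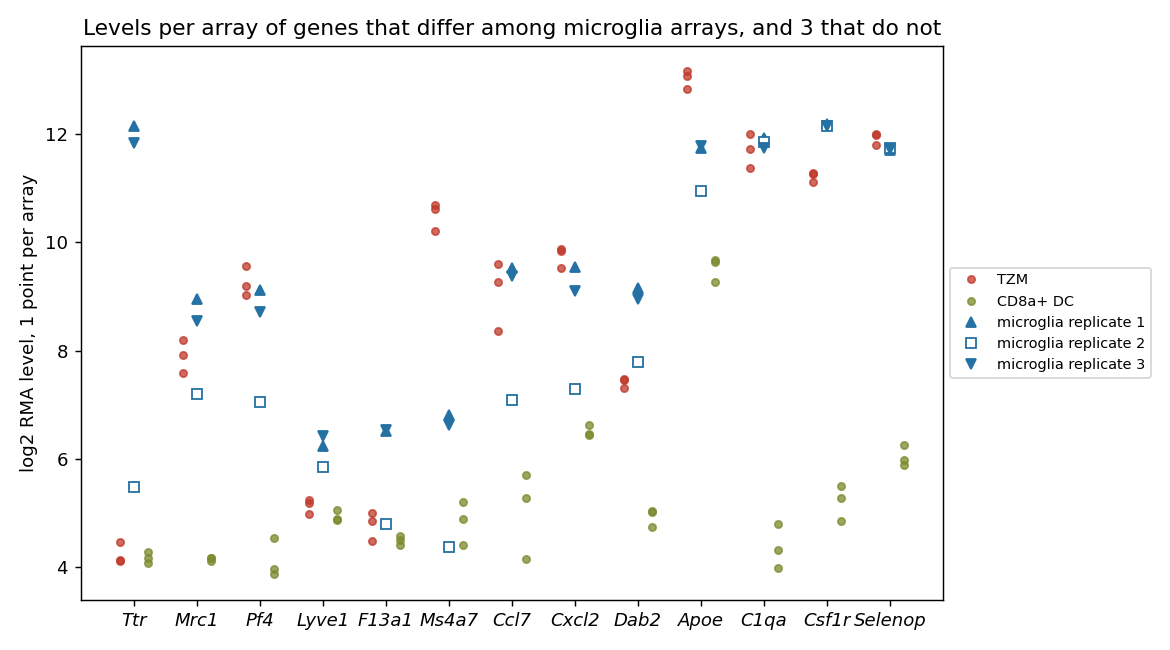
Levels (log2 RMA, vertical axis) of 13 genes in every array: TZM in red, CD8a+ DC in green, and the microglia replicates in blue as an upward triangle (1), an open square (2) and a downward triangle (3). Microglia replicate 2 lies below the other 2 from Ttr to Apoe and with them in C1qa, Csf1r and Selenop.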

How the data were processed

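RNA of 9 sorted samples, 3 each of TZM, microglia and CD8a+ DC, was measured on Affymetrix arrays. The authors deposited 1 log2 value per probe set and array, made with RMA in Affymetrix Expression Console 1.3.1 per the submitters' processing notes; RMA corrects background, makes the arrays' distributions alike and summarises probes, so absolute shifts common to all genes are lost. Array medians over genes were 4.9005 to 5.015. Of 35556 probe sets 21789 carried 1 gene symbol, 1621 several and 12146 none; only the first were named, 21698 of them matched to RefSeq by Entrez identifier, and the brightest probe set stood for each of 19938 genes (999 had more than 1).

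All 9 arrays were fitted together with limma 3.58.1 (R 4.3.3, lmFit and eBayes), with no filter on low levels, and p-values were adjusted by Benjamini-Hochberg over all genes. The test was checked on simulated data of the same layout, with 19938 genes of which 200 were changed in both populations: 90 of 100 changed by 1.5 (log2) and 98 of 100 changed by 2 were called, and 0 others. Each changed gene moved by the same amount in both populations and the rest in neither. Genes changed in 1 population alone were not simulated, so the check does not cover false calls among them. The labels call the replicates biological but do not say how many animals each holds. The rule, the gene lists and the markers were chosen with earlier results of these data known. Named genes were the 15 highest ranked in each direction, up to 5 shared genes per list, the 5 most unequal each way, the 5 most even of the first 60, 3 on each side of the minimum, the 3 largest opposite each way, fixed genes and sort gate genes; others were named after their values were seen. The 15 highest ranked in each direction were taken without sort gate genes and only where no macrophage array overlapped the CD8a+ DC arrays. Gene predictions, cDNA clones, small RNAs and receptor segments of B and T cells were not named. Alternatives were other scalings, filters, variance models, probe set rules, fits by pair and a replicate block; microglia replicate 2 alone was added after the data had been seen. Protein sequences and 1 of the 21 gene lists are not reported here.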

Additional observations from a re-analysis of the deposited data

Results flagged for a closer look

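Shared genes are listed here where the difference from CD8a+ DC was not the same in TZM and microglia. The contrast is TZM minus microglia (limma, adjusted over all genes). It is drawn from the same differences that chose the shared genes, so the list is a description. This held for 146 of the genes higher in both populations and 97 of those lower in both. Of the genes named in the report, 63 shared genes and 7 with opposite calls met it, with adjusted p-values from 2.6e-09 to 0.027. Dixon's outlier test was not run on these groups of 3. The report describes microglia replicate 2 and TZM replicate 2 by their values.

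Values here are TZM minus microglia on the log2 scale, from means of 3 arrays each. Among genes higher in both populations, TZM exceeded microglia in Tfec (4.27), Epb41l3 (3.91), Hbegf (3.63), Myo1e (3.42), Mmp14 (3.15), Hebp1 (2.57), Clec4a1 (2.47), Rgl1 (1.99), Pld3 (1.72), Ddx58 (1.71), Apoe (1.54), Timp2 (1.38) and Acp2 (1.10). Microglia exceeded TZM in Fcrls (-6.89), Gpr84 (-4.72), Olfml3 (-4.14), Slco2b1 (-4.06), F11r (-3.99), C3ar1 (-3.38), Itgam (-2.92), Csf3r (-2.22), Fcgr1 (-2.19), Itgb5 (-2.05), Cx3cr1 (-1.87), Lgmn (-1.73), Adgre1 (-1.70) and P2ry12 (-1.68). Smaller differences of the same sign were found for Nfia (-1.47), Tgfbr1 (-1.44), Fcgr3 (-1.34), Dab2 (-1.22), Hpgd (-1.20), Il1a (-1.20), Hpgds (-1.19), Tlr7 (-1.17), Klf4 (-1.15) and Rhob (-1.09).

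Among genes lower in both populations, TZM lay above microglia in Anpep (4.97), Adgre5 (4.55), Slamf7 (3.74), Shtn1 (3.68), Ccl22 (3.42), H2-Eb1 (3.30), Ccr7 (3.06), Cd24a (3.04), Ifi205 (2.96), Cd74 (2.94), Itgax (2.88), Klrk1 (2.44), Adam23 (1.60), Top2a (1.58), Cd36 (1.34), Clec9a (1.3), Il12b (1.20), Dpp4 (1.17) and Psmb8 (1.0). TZM lay below microglia in Tlr3 (-2.12), Plpp1 (-1.86), Mctp1 (-1.57), Pid1 (-1.51), Il1b (-1.48), H2-Oa (-1.12) and H2-Ob (-1.05). Among the opposite calls TZM were above microglia in Acp5 (6.58), Spic (6.43), Timd4 (6.24) and Cfp (5.45), and below in Pde3b (-5.63), Ccl4 (-3.64) and Ier3 (-3.36).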

How the results depend on the processing

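None of the 144 named genes called shared changed direction in the settings that fitted both populations. Counts of genes have no direction to reverse. Leaving out each array in turn gave 446 to 477 genes higher and 533 to 615 lower in both populations, 878 to 931 and 829 to 922 in the mean contrast, and 133 to 147 and 93 to 98 shared genes that differ between TZM and microglia; 390 of the 461 and 487 of the 591 genes were called in all 9 of these fits. Without the minimum of 1 the counts were 1034 higher and 1459 lower, 2298 and 2514 in the mean contrast, and 493 and 484 that differ between the macrophages. With the 6 macrophage arrays as 1 group the mean contrast called 535 genes higher, and with every probe set tested, named or not, 1372 probe sets were lower. With replicate 2 as the only microglia array, chosen after seeing the data, 107 higher and 95 lower shared genes differed between the macrophages. Fits of each pair of groups on its own give no mean contrast. The replicate numbers of the labels do not pair the arrays (correlations of deviations between arrays of the same number ran from -0.15 to 0.13); with the number as a replicate block the counts were 459 and 584, 899 and 880, and 144 and 94. Of the genes named by the rule, the block ended the call of Cd74 alone (limma adjusted p 0.052 in TZM), which 9 other settings also ended. Of 168 genes named by the rule, 144 were called shared; 14 of these lost the call under some setting, and 11 others gained one. Of these 25 genes, 12 had been named for lying at the minimum. Array number, 3 per group, limits the precision, and depth has no meaning for these values.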
